A study of Mus musculus with 8 samples.

Results

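The genes described here build and drive the actin cytoskeleton of primordial germ cells (PGCs), the cells that later form sperm or eggs, while they migrate. They were 40 named genes, chosen for their roles: actin itself, nonmuscle myosin II, the factors that assemble, branch, elongate and take apart actin filaments, and the proteins that tie filaments to the membrane and to sites of adhesion. A gene was measured when the array held a probe with that gene as its only symbol, which was the case for 39 of the 40 among 19938 genes in all. Actr2, which encodes a core subunit of the Arp2/3 complex, was not analysed here. For Myh9 and Arpc1b, which had several probes, the probe of highest mean was used.

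PGCs were sorted for an Oct4-driven GFP from the posteriors of single mouse embryos at embryonic day 9.5, when they move actively, and the RNA of each embryo was hybridised to 1 array. The groups were 4 WT embryos (Ror2+/+) and 4 mutant embryos (Ror2Y324C/Y324C), all on a mixed strain background and all from Ror2Y324C/+ mothers and Ror2Y324C/+;Oct4-ΔPETg/Tg fathers, so that embryos of both groups received the reporter from the father. The Ror2 gene encodes a Wnt5a receptor of the tyrosine kinase class. Its mutant allele is named for an amino acid change, so transcript level is no check of the labels. WT embryos 1 to 4 had 25, 25, 22 and 21 somites and mutants 1 to 4 had 24, 22 to 23, 23 and 21 to 22, the segments counted to stage embryos. Levels are the deposited values, taken as log2.

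Actin monomers join into filaments that push the membrane forward, and cells steer this by choosing where new filaments start. The Arp2/3 complex starts branches on existing filaments when WASP or WAVE proteins switch it on, while formins and Ena/VASP proteins lengthen unbranched filaments. Cofilins sever old filaments, profilins feed monomers back to growing ends, and myosin II pulls filaments past each other to contract the cell cortex. Many cytoskeletal genes are known targets of serum response factor, which binds the CArG box.

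The CArG box, the binding sequence of that factor, was searched by name, on both strands, in the RefSeq promoters of GRCm38.p6, each from 250 bases before to 50 bases after a gene start. Promoters were listed for 37 of the 40 genes (39 promoters), and not for Actb, Diaph1 and Pxn. A box was found in 3 of the 39 promoters, or 7.69%, and in 1.63% of all 32851 promoters. The matches are shown with up to 15 bases on each side, the box in capitals. They lie at chr2:156775288-156775327, chr14:20929156-20929195 and chr6:113377863-113377887, all on the plus strand, with the box at positions -161, -227 and -250 relative to the gene start.
Myl9: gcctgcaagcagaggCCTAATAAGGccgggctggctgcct
Vcl: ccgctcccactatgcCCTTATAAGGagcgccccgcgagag
Arpc4: CCTAATTTGGtgcccaacctgaggt
These are matches of letters only. No binding was measured in these cells, and a promoter without a match says nothing of the factor. Between mutant and WT, Myl9, Vcl and Arpc4 differed by -0.42, 0.12 and 0.07 on the log2 scale. The mean log2 level of Srf, which encodes serum response factor, was 8.67 ± 0.18 in WT and 8.66 ± 0.14 in mutants (SD over 4 embryos each).

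Between mutant and WT embryos, no gene of the actin machinery passed the limma test. Of the 39 genes, 0 had an adjusted p under 0.05, as did 0% of all 19938 genes, and the smallest adjusted p among the 39 was 0.973. At an unadjusted p under 0.05 there was 1, Wasf2, where 4.68% of all genes lay. In 0 of the 39 did the 4 mutant values lie wholly on one side of the 4 WT values, which 2.52% of all genes showed. The 95% interval of the difference lay within -1 to 1, that is within a 2-fold change either way, for 39 of 39 genes and for 93.5% of all genes. It lay within -0.5 to 0.5 for 18 of the 39 and for 45.9% of all genes, so smaller differences were not resolved for most members. In bulk RNA of sorted cells, fewer cells of a type and less RNA per cell cannot be told apart.

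The median difference over the 39 genes was 0.115 (mutant minus WT), with 26 above 0, beside a median of -0.02 and 44.6% above 0 over all genes. Most members are well expressed, and the better expressed part of the array (genes above the median level, 37 of the 39 among them) had a median difference of 0.04. The members' shift depended on single arrays and on scaling. The median over the 39 was 0.02 without WT 3 and 0.02 after quantile normalization, with 23 of 39 then above 0. It was 0.05 without WT 4 and 0.07 without WT 3 and mutant 4 together, but 0.149 after median centring, with 27 of 39 above 0, 0.145 without WT 1 and 0.146 with somite number in the model. The median over all genes moved too. It was 0.001 without WT 3, -0.01 after quantile normalization, 0.01 after median centring, -0.05 without WT 1 and -0.04 with somite number in the model. Median centring shifts every gene of an array by the same amount.

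**Figure D1:**
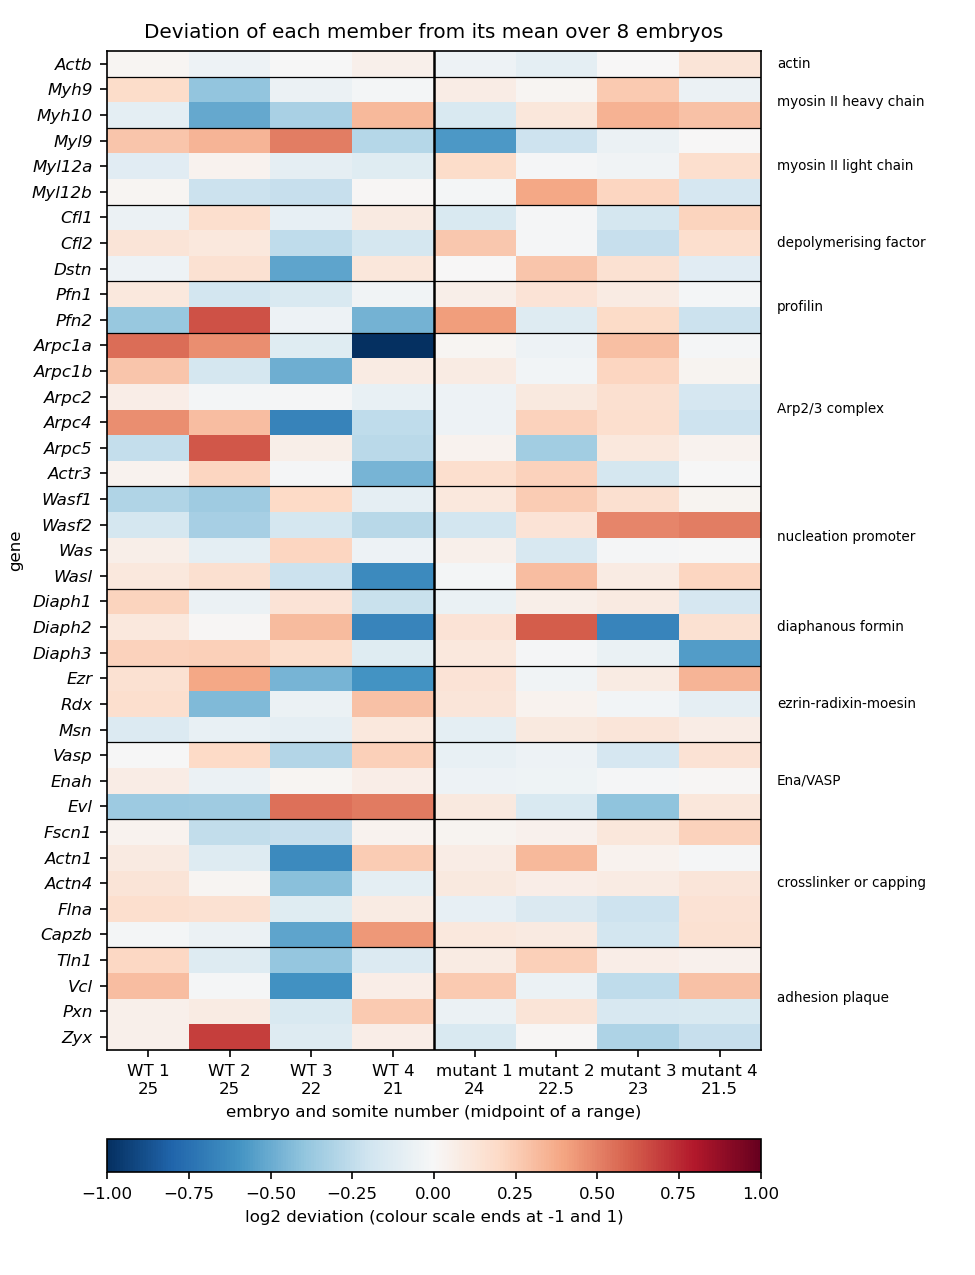
Heat map of the log2 deviation of each of the 39 genes (rows, grouped by role) from its own mean over the 8 embryos (columns, with the somite number). WT 3 lies above the gene mean for only 9 of the 39 genes, the deepest blue cell is Arpc1a in WT 4, and Wasf2 is red in mutants 3 and 4.

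WT 3 held the lowest value of the 8 embryos for 11 of the 39 genes (28.2%), among them Dstn, Arpc1b, Arpc4, Actn1, Actn4, Capzb, Tln1 and Vcl. Over the genes above the median level it held the lowest value for 20.7%. WT 2 and WT 4 each held the lowest value for 8 of the 39 (20.5%), beside 11.9% and 17.7% of the genes above the median level. The distribution of log2 values was narrowest in WT 3, with an SD over genes of 1.77 against 1.82 to 1.95 in the other 7. WT 4 (1.82) and mutant 4 (1.83) came next. WT 4, mutant 4 and WT 3 were also the embryos of lowest somite number. WT 3 also had the lowest mean of the PGC markers among the 8 embryos (9.97) and the highest means of the trunk mesenchyme (5.39), macrophage (5.30) and primitive erythroid (5.31) markers, and it was 1 of the 2 arrays with high Xist. Of the mesenchyme, macrophage and erythroid markers, 6 of 8, 4 of 6 and 3 of 6 had means in a span not told apart from background, described below. WT 3 also held the highest value for 24.2% of all genes, the largest share among the 8 embryos. The part of these markers and of Xist in the values below was not tested beyond leaving the array out. Across embryos, the SD was larger in WT than in mutants for 29 of 39 genes and for 59.2% of all genes, with a median SD of 0.244 in WT and 0.15 in mutants. Without WT 3 these were 24 of 39 and 51.9%.

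Actb, which encodes the beta-actin of the cytoplasm, was at 12.73, 12.66, 12.70 and 12.76 in WT embryos 1 to 4 and at 12.66, 12.61, 12.71 and 12.83 in mutants 1 to 4 on the log2 scale. All 8 values lay within a narrow band and the groups overlapped fully. The difference was -0.01 with a 95% interval of -0.27 to 0.25. Its sign depended on scaling, turning positive when arrays were centred on their medians.

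Nonmuscle myosin II is the motor of the cell cortex, and its heavy chains Myh9 and Myh10 carry the motor heads. Myh9 was at 8.15, 7.58, 7.92 and 7.95 in WT embryos 1 to 4 and at 8.05, 7.99, 8.24 and 7.91 in mutants 1 to 4. WT 2 was lowest, the other 7 lay close together, and the difference was 0.15 ± 0.15 (SE). Myh10 ranged from 5.79 to 6.63 in WT and from 6.15 to 6.65 in mutants, a difference of 0.30 ± 0.19 (SE) with an interval of -0.13 to 0.73. Single embryos moved the Myh10 value both ways, to 0.46 ± 0.18 without WT 4 (unadjusted p 0.0261) and to 0.18 ± 0.20 without WT 2 (unadjusted p 0.382). Both heavy chains lay above 0 under the deposited, quantile-normalized and median-centred values of the probes used. The sign of Myh9 depended on the probe: a second probe differed by -0.81 ± 0.71, and the mean of both probes by -0.33 ± 0.34.

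The regulatory light chains switch the myosin head on when they are phosphorylated. Myl9, whose promoter holds a CArG box, was at 6.24, 6.31, 6.48 and 5.68 in WT embryos 1 to 4 and at 5.40, 5.77, 5.91 and 5.98 in mutants 1 to 4. Mutant 1 was lowest and WT 1, 2 and 3 were the highest 3 of the 8, but WT 4 lay among the mutants, so that the groups overlapped. It differed by -0.42 ± 0.20 (SE) with an interval of -0.85 to 0.02 and an unadjusted limma p of 0.0592, the largest difference below 0 among the 39 genes. Leaving out single embryos gave Myl9 differences from -0.58 ± 0.17 without WT 4 (unadjusted p 0.00759) to -0.30 ± 0.20 without mutant 1 (unadjusted p 0.173), with -0.32 ± 0.20 without WT 3. Myl12a and Myl12b, which encode closely similar light chains and may share signal, ranged from 10.13 to 10.29 in WT and from 10.21 to 10.44 in mutants (difference 0.15), and from 10.20 to 10.44 in WT and from 10.26 to 10.81 in mutants (difference 0.21). Of the 3 light chain differences, 1 lay below 0 and 2 above.

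Cofilins and destrin sever filaments and free their monomers. Cfl1, the nonmuscle cofilin, was at 10.28, 10.50, 10.25 and 10.42 in WT embryos 1 to 4 and at 10.18, 10.32, 10.16 and 10.56 in mutants 1 to 4. The 2 groups interleaved, and the difference was -0.06 ± 0.14 (SE). Cfl2, the muscle cofilin, differed by 0.10, and Dstn, which encodes destrin, by 0.16, with Dstn lowest in WT 3 at 9.33 and between 9.74 and 10.13 in the other 7 embryos.

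Profilins hand monomers to formins and Ena/VASP proteins. Pfn1, the widely expressed profilin, was at 11.59, 11.30, 11.33 and 11.45 in WT embryos 1 to 4 and at 11.54, 11.62, 11.56 and 11.47 in mutants 1 to 4, and the difference was 0.13 ± 0.12 (SE) with overlapping groups. Pfn2, more abundant in neurons, ranged from 4.23 to 5.34 in WT and from 4.49 to 5.12 in mutants. The mean of Pfn2 lay within the span of the 1194 olfactory and vomeronasal receptor genes (5th to 95th percentile of their means, 2.31 to 5.26), as did the mean of Was. These receptors act mainly in sensory neurons, so means in that span were not told apart from background.

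The Arp2/3 complex builds branched networks behind the leading edge, and the differences of its 6 measured subunits ran from -0.08 to 0.15 between the groups. Arpc1a, one of a pair of alternative subunits of the complex, was at 8.82, 8.73, 8.14 and 7.10 in WT embryos 1 to 4 and at 8.29, 8.21, 8.57 and 8.25 in mutants 1 to 4. WT 1 and 2 were highest and WT 4 lowest, with a drop of more than 1 below all other embryos. Its SD was 0.79 in WT and 0.16 in mutants, and its pooled SD was the largest of the 39 genes. The mutant minus WT difference was 0.13 ± 0.32 (SE), with an interval of -0.59 to 0.85. Its sign depended on WT 4: the difference was -0.23 ± 0.19 without that embryo, and 0.34 ± 0.33 without WT 1.

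Arpc4, a subunit that holds the complex together, was at 8.60, 8.44, 7.47 and 7.88 in WT embryos 1 to 4 and at 8.09, 8.36, 8.30 and 7.93 in mutants 1 to 4. WT 3 and WT 4 were the lowest embryos and WT 1 and WT 2 the highest, with the mutants between them. The differences were 0.07 for Arpc4, 0.15 for Arpc1b, 0.02 for Arpc2, -0.08 for Arpc5 and 0.11 for Actr3, the actin-related core subunit. After quantile normalization 3 of the 6 lay above 0, against 5 of 6 on the deposited values. Arpc2 was among the steadier members, from 9.29 to 9.44 in WT and from 9.21 to 9.53 in mutants.

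WASP and WAVE proteins switch on the Arp2/3 complex, and this group held the one gene with an unadjusted p under 0.05. Wasf2, which encodes WAVE2, the widely expressed WAVE protein of lamellipodia, was at 9.07, 8.91, 9.07 and 8.97 in WT embryos 1 to 4 and at 9.06, 9.38, 9.73 and 9.75 in mutants 1 to 4. WT embryos lay close together, mutants 3 and 4 lay well above them, mutant 2 in between, and mutant 1 among the WT values, so that the groups overlapped. The means were 9.003 ± 0.08 in WT and 9.48 ± 0.33 in mutants (SD, n = 4 each), a difference of 0.48 ± 0.17 (SE), or 1.39-fold, with an interval of 0.10 to 0.85. Its unadjusted limma p was 0.0173 and its adjusted p 0.973.

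The Wasf2 difference kept its sign under all 17 alternative settings, with values from 0.39 to 0.62 and adjusted p-values from 0.568 to 1. The unadjusted p rose to 0.0543 without mutant 3 and to 0.0521 without mutant 4, and fell to 0.00255 without mutant 1. Mutant 4 and WT 3 were the 2 arrays of high Xist, an RNA made from the inactive X, and without both the difference was 0.41 ± 0.19 (SE, unadjusted p 0.0631).

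Wasf1, which encodes WAVE1, was at 7.93, 7.87, 8.43 and 8.14 in WT embryos 1 to 4 and at 8.34, 8.48, 8.39 and 8.26 in mutants 1 to 4. WT 1, 2 and 4 lay below the mutants and WT 3 among them. The difference was 0.27 ± 0.15 (SE) with an unadjusted p of 0.097. The Wasf1 value was 0.39 ± 0.13 without WT 3 (unadjusted p 0.0179), 0.20 ± 0.16 without WT 2 (unadjusted p 0.241) and 0.20 ± 0.17 after quantile normalization (unadjusted p 0.273). Wasl, which encodes N-WASP, differed by 0.29 ± 0.18 (SE) and was lowest in WT 4 at 7.89, with the other 7 from 8.31 to 8.84. Was, the WASP gene of blood cells, whose mean lay in the span of the receptor genes, had a difference of -0.06.

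**Figure D2:**
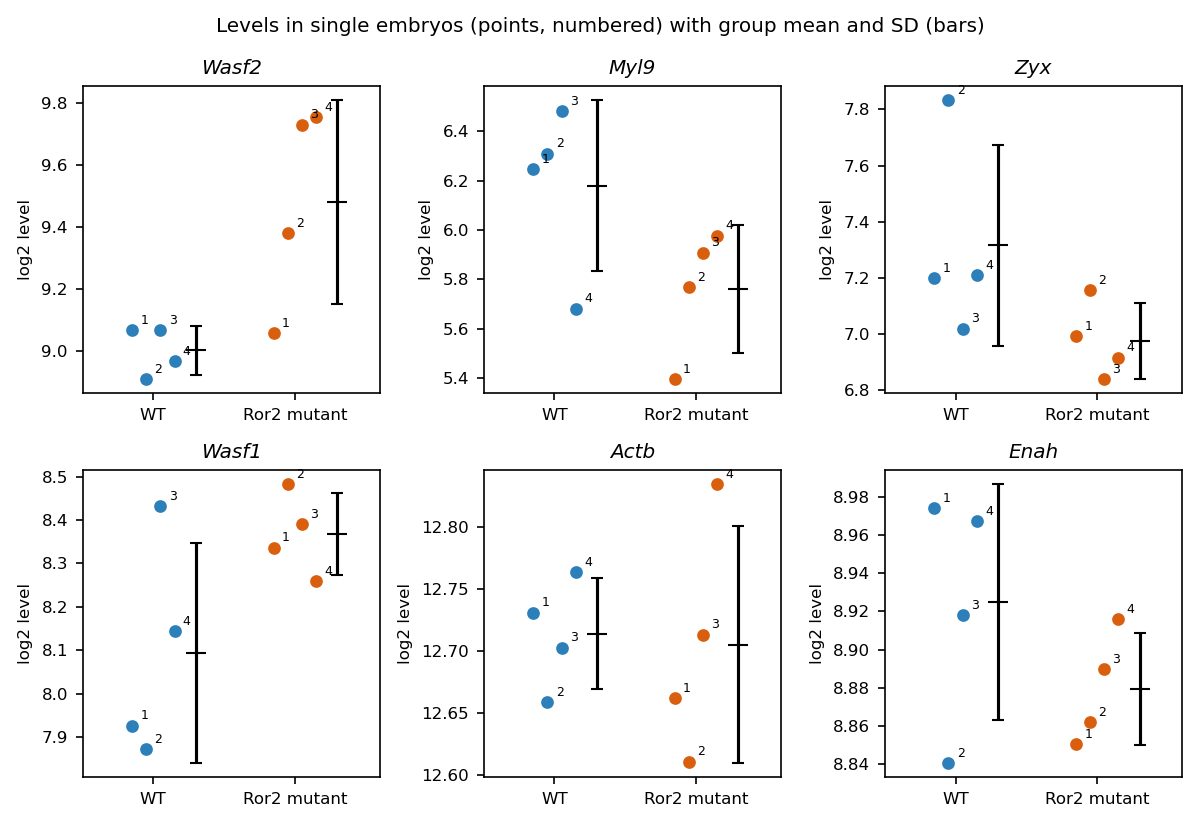
Log2 level in each embryo (points, numbered 1 to 4 within each group, each panel with its own vertical axis) for 6 genes, with the mean and SD of each group as bars. For Wasf2 mutants 2, 3 and 4 lie above every WT embryo and mutant 1 among them, and the groups overlap in every panel.

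Diaphanous formins start and lengthen straight filaments. Diaph1 was at 9.29, 9.01, 9.20 and 8.84 in WT embryos 1 to 4 and at 8.998, 9.12, 9.15 and 8.90 in mutants 1 to 4, and its groups interleaved, with a difference of -0.04 ± 0.14 (SE). Diaph3 ranged from 7.68 to 8.04 in WT and from 7.24 to 7.90 in mutants and was lowest in mutant 4. It differed by -0.26 ± 0.17 (SE), and after quantile normalization by -0.35 ± 0.14 with an unadjusted p of 0.0346. Without mutant 4 the Diaph3 difference was -0.12 ± 0.15 (unadjusted p 0.432), and without WT 3 and mutant 4 together -0.11 ± 0.16 (unadjusted p 0.517). Diaph2 varied the most of the formins, from 5.08 to 6.06 in WT and from 5.09 to 6.35 in mutants, with a difference of 0.12.

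Ezrin, radixin and moesin pin the cortex to the membrane. Ezr was at 8.09, 8.32, 7.48 and 7.34 in WT embryos 1 to 4 and at 8.07, 7.91, 8.02 and 8.28 in mutants 1 to 4. WT 3 and WT 4 lay below all other embryos, while the mutants ran from a little below WT 1 to just under WT 2. The difference was 0.26 ± 0.22 (SE). Rdx ranged from 8.19 to 8.92 in WT and from 8.54 to 8.75 in mutants with a difference of 0.02, and Msn from 6.75 to 6.99 in WT and from 6.79 to 7.01 in mutants with a difference of 0.10.

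Ena/VASP proteins keep filament ends growing in filopodia and lamellipodia. Vasp was at 8.10, 8.30, 7.82 and 8.34 in WT embryos 1 to 4 and at 8.03, 8.06, 7.94 and 8.25 in mutants 1 to 4, with the groups interleaved and a difference of -0.07 ± 0.15 (SE). Enah was the steadiest of the 39 genes, from 8.84 to 8.97 in WT and from 8.85 to 8.92 in mutants, with a pooled SD of 0.05 and a difference of -0.05. Evl was at 6.49, 6.49, 7.40 and 7.37 in WT embryos 1 to 4 and at 6.95, 6.70, 6.45 and 6.97 in mutants 1 to 4. WT 3 and WT 4 stood above all mutants and WT 1 and WT 2 lay near the low end, above mutant 3 alone, so the genotype difference of -0.18 ± 0.24 (SE) sat inside a wide WT spread. The 3 differences lay below 0 under the deposited, quantile-normalized and median-centred values.

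Crosslinkers bundle and brace filaments, and capping protein stops their growth. Fscn1, which encodes the filopodial bundler fascin, was at 10.36, 10.08, 10.10 and 10.37 in WT embryos 1 to 4 and at 10.35, 10.37, 10.44 and 10.56 in mutants 1 to 4. WT 2 and WT 3 were lowest, WT 1 and WT 4 lay among the mutants, and the difference was 0.20 ± 0.13 (SE). The alpha-actinin genes Actn1 and Actn4 differed by 0.21 and 0.19. Actn4 was nearly level among mutants, from 9.31 to 9.86 in WT and from 9.80 to 9.85 in mutants, with WT 3 lowest. Flna, the gene of the crosslinker filamin A, differed by -0.14, and Capzb, the capping protein beta subunit, by 0.08.

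At adhesions, talin links integrins to actin, and vinculin, paxillin and zyxin gather there. Tln1 was at 7.47, 7.13, 6.87 and 7.12 in WT embryos 1 to 4 and at 7.34, 7.50, 7.32 and 7.30 in mutants 1 to 4. WT 3 was lowest and the difference was 0.22 ± 0.15 (SE). Vcl ranged from 7.08 to 7.99 in WT and from 7.43 to 7.97 in mutants with a difference of 0.12, and Pxn from 5.997 to 6.41 in WT and from 5.99 to 6.27 in mutants with a difference of -0.12. Zyx was highest in WT 2 at 7.83 and lowest in mutant 3 at 6.84. It differed by -0.34 ± 0.18 (SE) with an unadjusted p of 0.0893, and the groups overlapped. After quantile normalization the Zyx difference was -0.41 ± 0.17 (unadjusted p 0.0394), and without WT 2, the highest embryo, -0.17 ± 0.14 (unadjusted p 0.277). The adhesion genes went both ways, 2 of 4 above 0.

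**Figure D3:**
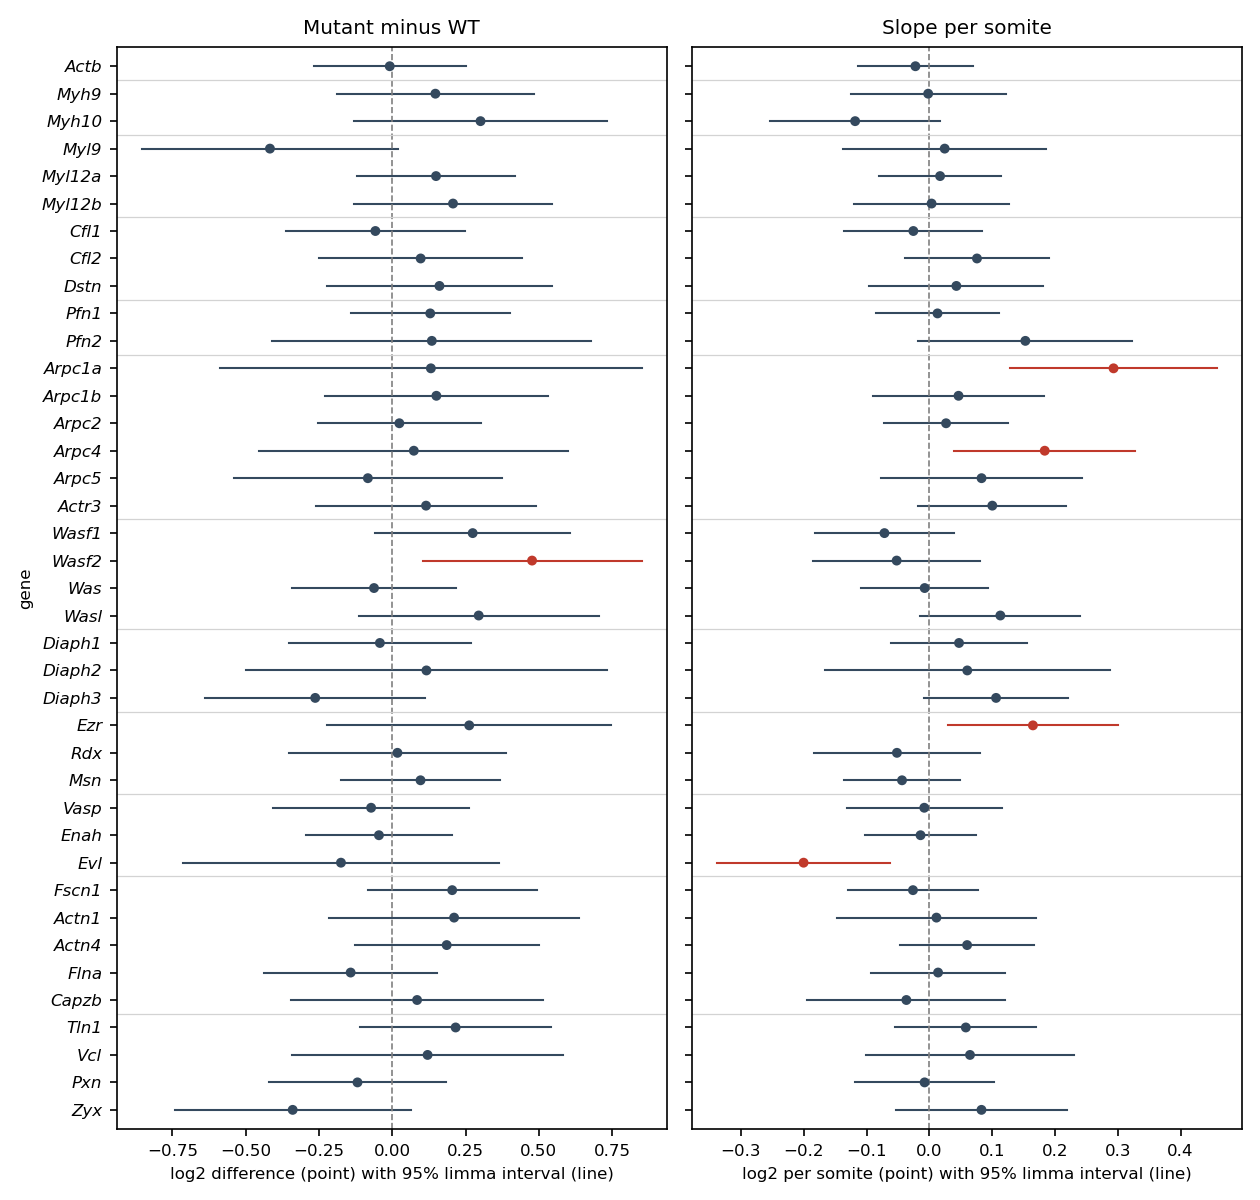
Mutant minus WT difference (left, log2) and slope per somite with genotype in the model (right, log2 per somite) for the 39 genes, as points with 95% limma intervals. Red marks an unadjusted p under 0.05: Wasf2 on the left at 0.48, and Arpc1a, Arpc4, Ezr and Evl on the right.

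The somite number was used to ask whether actin genes change as embryos add segments, with genotype in the limma model. No member passed: 0 of 39 had an adjusted p under 0.05, as did 0% of all genes, and the smallest was 0.384. At an unadjusted p under 0.05 there were 3 positive slopes (Arpc1a, Arpc4 and Ezr) and 1 negative (Evl), 4 of 39, where all genes gave 9.74%, with 5.02% positive and 4.72% negative. The members' share lies near that background. The median slope was 0.02 log2 per somite over the 39 and -0.02 over all genes, with 24 of 39 and 40.5% above 0. Genes above the median level, 37 of the 39 among them, had a median slope of 0.02, as the members did. After quantile normalization 19 of 39 lay above 0 and after median centring 32, so the direction of the list as a whole depended on scaling. WT 4, mutant 4 and WT 3, the embryos of lowest somite number, also had the narrowest distributions of log2 values. The part of that spread in the slopes was not tested beyond the change of scaling.

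Arpc1a had the steepest slope, 0.29 ± 0.07 log2 per somite (SE), with an unadjusted p of 0.00285 and an adjusted p of 0.384. As its levels above show, the 2 WT embryos of 25 somites were highest and the WT embryo of 21 somites lowest. Without that embryo, WT 4, the slope was 0.15 ± 0.07 (unadjusted p 0.0554). Fitted apart, the slopes were 0.36 ± 0.07 in WT and 0.04 ± 0.14 in mutants.

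Arpc4 gave 0.18 ± 0.06 (unadjusted p 0.018), again with the 25-somite WT embryos highest. Its slopes were 0.22 ± 0.07 in WT and 0.06 ± 0.14 in mutants, and the unadjusted p was 0.0809 without WT 1 and 0.0515 without WT 2. All 6 measured subunits of the complex had slopes above 0 on the deposited and the median-centred values, and 5 of 6 after quantile normalization. Of the 39 members, 24, 32 and 19 did in the same settings, beside 40.5% of all genes on the deposited values. The other 4 were 0.05 (Arpc1b), 0.03 (Arpc2), 0.08 (Arpc5) and 0.10 (Actr3).

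Ezr had a slope of 0.16 ± 0.06 log2 per somite, with an unadjusted p of 0.0217 and an adjusted p of 0.475. Fitted apart, its slopes were 0.23 ± 0.06 in WT and -0.07 ± 0.11 in mutants, the latter smaller than its SE. Mutant 4, of 21 to 22 somites, had the highest Ezr level of the mutants. The unadjusted p was above 0.05 after quantile normalization (0.103) and without each WT embryo in turn (0.0508 to 0.138). Evl gave -0.20 ± 0.06 (unadjusted p 0.00919, adjusted p 0.428), with slopes of -0.24 ± 0.06 in WT and -0.03 ± 0.13 in mutants. WT embryos of 25 somites shared a level near 6.49 and those of 22 and 21 somites lay near 7.40 and 7.37.

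**Figure D4:**
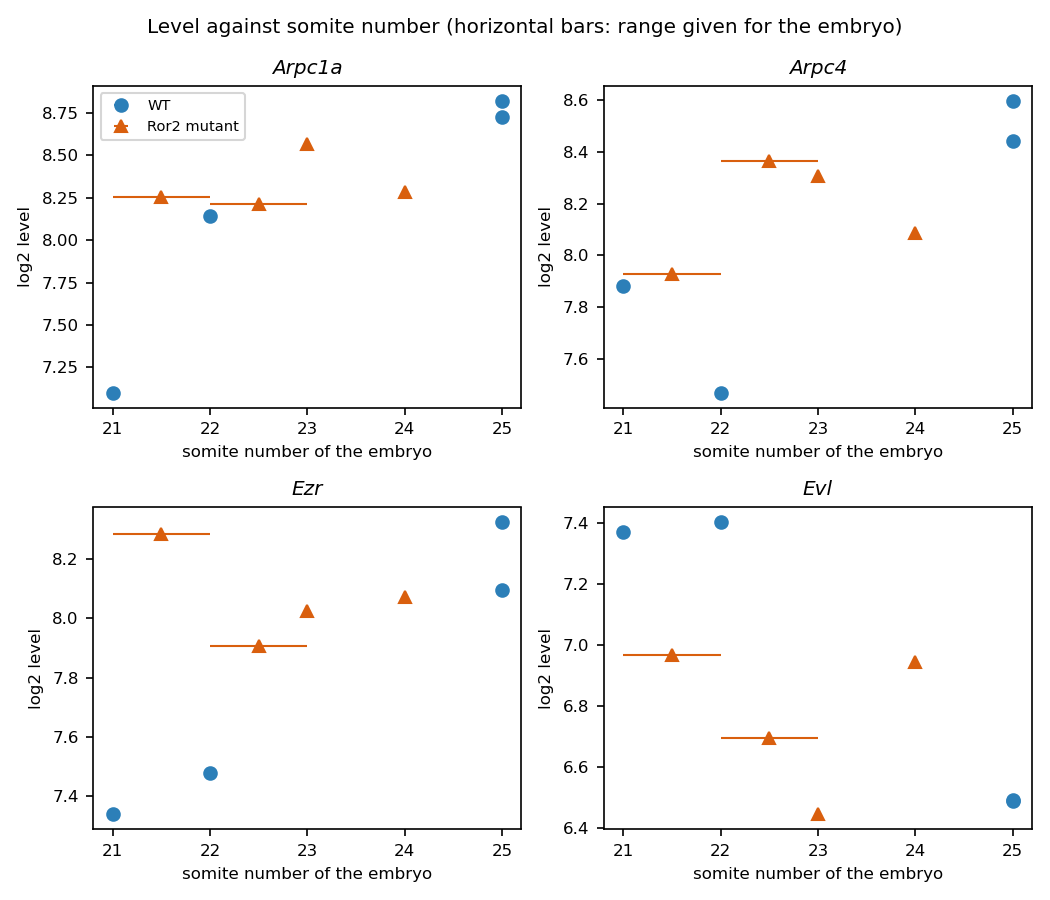
Log2 level of 4 genes against somite number for WT (circles) and mutant (triangles) embryos, 1 point an embryo; horizontal bars give the range where the label gives one. For Arpc1a, Arpc4 and Ezr the WT points at 25 somites lie highest among WT, for Evl lowest, where the 2 points coincide.

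The slope itself was compared between genotypes with an interaction term. It reached an unadjusted p under 0.05 for 2 of 39 genes, against 4.52% of all genes, and 0 passed after adjustment. These were Ezr, with a mutant minus WT slope of -0.30 ± 0.12 (SE, p 0.0393, adjusted p 0.999), and Wasl, with -0.28 ± 0.12 (p 0.0446, adjusted p 0.999). Neither reached it after quantile normalization or with a trended, robust variance prior.

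Markers of other cells were read beside these slopes. Of all genes, 40.5% had slopes above 0, and the median slope of all genes, -0.02 as deposited, was 0.01 after median centring, so signs over a list can depend on scaling. They can also depend on level: genes above the median level had a median slope of 0.02, so slopes below 0 were more common among genes of low level. Hindgut endoderm markers, of the tissue that PGCs leave, had 8 of 9 slopes below 0, and their mean ran from 6.44 to 7.10 in WT and from 6.56 to 6.95 in mutants. The slope of the keratin gene Krt18 was -0.41 ± 0.09 (unadjusted p 0.00171). Muscle and smooth muscle markers had 9 of 11 slopes below 0, among them the smooth muscle actin Acta2 at -0.23 ± 0.07 (unadjusted p 0.00687), whose mean lay in the span of the receptor genes. The mean of the muscle list ran from 5.22 to 5.57 in WT and from 5.26 to 5.58 in mutants. Their part in the slopes of the actin genes was not tested. Of the remaining lists, slopes above 0 were 0 of 8 for trunk mesenchyme, 1 of 6 for primitive erythroid cells, 1 of 6 for macrophages, 2 of 6 for endothelium and 6 of 9 for PGC markers, whose mean ran from 9.97 to 10.26 in WT and from 10.10 to 10.25 in mutants. Many of these markers had means in the span of the receptor genes, not told apart from background. They were 6 of 8 for trunk mesenchyme, 4 of 6 for macrophages, 3 of 6 for endothelium and 5 of 11 for muscle. For hindgut it was 1 of 9, and for PGC markers 0 of 9. Between genotypes, where 1.96% of all genes were lower at an unadjusted p under 0.05, 1 of 11 muscle markers was (Actc1, cardiac actin, -0.66 ± 0.26 (SE)), and so was 1 of 6 macrophage markers (Tyrobp, -0.44 ± 0.19 (SE)), with 0 in the PGC, hindgut, mesenchyme, erythroid and endothelial lists. The 6 measured erythroid markers had differences below 0, Klf1 by next to nothing, and the means of 3 of them (Hbb-y, Hbb-bh1 and Klf1) lay in the span of the receptor genes. The mean of the erythroid list ran from 4.66 to 5.31 in WT and from 4.65 to 4.87 in mutants, highest in WT 3. Trunk mesenchyme ran from 4.85 to 5.39 in WT and from 4.98 to 5.24 in mutants, macrophage markers from 4.79 to 5.30 and from 4.73 to 5.02, and endothelial markers from 5.27 to 5.39 and from 5.22 to 5.42.

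The wider actin pathway was read from a list of 79 other genes, 69 of them measured. At an unadjusted p under 0.05, mutants were higher for 5 and lower for 0 of them, where 2.72% of all genes were higher and 1.96% lower, and 0 had an adjusted p under 0.05. The median difference was 0.03, with 40 of 69 above 0, beside 44.6% of all genes. Ssh1, the slingshot phosphatase that switches cofilin on, was at 6.92, 7.25, 6.72 and 7.37 in WT embryos 1 to 4 and at 7.44, 8.09, 7.65 and 7.96 in mutants 1 to 4. Every mutant lay above every WT embryo, by a narrow margin between mutant 1 and WT 4, and the difference was 0.72 ± 0.19 (SE) (unadjusted p 0.00377, adjusted p 0.973). Groups failed to overlap for 2 of the 69, beside 2.52% of all genes, the other being Coro1a, a coronin of blood cells, with a difference of -0.27, an unadjusted p of 0.0754 and a mean in the span of the receptor genes.

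Arpc5l, an alternative subunit of the Arp2/3 complex, was at 8.22, 6.97, 6.85 and 7.40 in WT embryos 1 to 4 and at 8.51, 7.86, 8.43 and 8.82 in mutants 1 to 4. WT 1 lay among the mutants and the other WT embryos below them all, a difference of 1.04 ± 0.30 (SE) with an unadjusted p of 0.00552. Wasf3, which encodes WAVE3, differed by 0.72 ± 0.27 (SE), with WT 2 and WT 4 far below the rest at 6.60 and 6.18. Coro1b, a coronin that works on branched filaments, differed by 0.73 ± 0.28 (SE), and the scaffold Iqgap1 by 0.34 ± 0.15 (SE). The kinases and phosphatases had 11 of 13 members above 0 and 1 with an unadjusted p under 0.05 (Ssh1), and the other Arp2/3 and WAVE subunits 6 of 10 and 2. The other actin binders had 19 of 38 above 0 and 2 with an unadjusted p under 0.05. Over all genes the shares were 44.6% above 0 and 4.68% with an unadjusted p under 0.05.

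Along somite number, 4 of the 69 pathway genes had positive and 2 negative slopes at an unadjusted p under 0.05, against 5.02% and 4.72% of all genes, and 0 passed after adjustment. Brk1 and Abi1, subunits of the WAVE complex, had slopes of 0.19 ± 0.06 and 0.31 ± 0.12 log2 per somite (SE). Both were lowest in WT 4, Brk1 at 9.24 and Abi1 at 7.51, as Arpc1a and Wasl were. Coro1b had a slope of 0.24 ± 0.07 and the kinase gene Cdc42bpa of 0.12 ± 0.05. Tpm1, a tropomyosin that coats filaments, had one of -0.19 ± 0.08.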

How the data were processed

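Transcripts of sorted PGCs were measured on 8 arrays. RNA was amplified with a NuGEN kit before labelling, per the labels' protocols. The deposited table holds 1 value per probe and array, read as log2 from its range, and was used without further scaling (the authors' own scaling: not given in the sources used here). Medians per array were 5.37 to 5.58. GEO's platform annotation gave a single symbol for 21789 of the 35557 probes. The number of arrays limits the precision.

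The tests used lmFit and eBayes of limma 3.58.1 under R 4.3.3. P-values were adjusted by Benjamini and Hochberg's method across the 19938 genes (threshold 0.05). The models held genotype alone, somite number (midpoint of a range) with genotype, or both with their interaction. The scripts were tested on simulated data. Alternatives were quantile normalization, median centring, a level filter, the mean of probes, array weights, a trended and robust prior, the replicate number as a block, other somite codings, and leaving out arrays.

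The members and lists were chosen with earlier results of these data known, so lists are described by counts and medians, with no list test. Values in every embryo are given for members with an unadjusted p under 0.05 between genotypes or along somite number, the member of largest spread and the first member of each role. Up to 2 genes of smallest p were named in each other list; further ones were chosen after their values were seen. No source used here names the build behind the probes; coordinates are those of the promoter table. The values of 1 list of pathway genes are not reported here.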

Additional observations from a re-analysis of the deposited data

Results flagged for a closer look

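Within each group of 4 embryos, the gap between an extreme value and its nearest neighbour was compared with the group's range for each of the 39 genes (78 groups, of which chance marks about 1 in 20). It exceeded the critical ratio in 1 group. Arpc5, a subunit of the Arp2/3 complex, was at 8.44 in mutant 2, whereas mutants 1, 3 and 4 spanned 8.82 to 8.89, a ratio of 0.851.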

How the results depend on the processing

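No alternative gave an adjusted p under 0.05 to any of the 39 genes, in the comparison of genotypes (17 settings), along somite number (19) or in their interaction (2). The sign of the genotype difference turned in at least 1 setting for 14 of the 39 genes, and that of the slope for 24, but not for Wasf2, Arpc1a, Arpc4, Ezr or Evl in the comparison that named them. The count of members with an unadjusted p under 0.05 between genotypes, 1 as reported, was 3 after quantile normalization (Wasf2, Diaph3 and Zyx), 2 after median centring, 3 with array weights, and from 0 (without mutant 3) to 3 (without WT 3 or WT 4) when arrays were left out. Over all genes the shares in these settings were 4.85%, 4.69% and 6.33%, and from 3.66% to 8.6% with single arrays left out, beside 4.68% as reported. For somite number the member count, 4 as reported, was 8 after median centring, 2 with the replicate block and from 2 to 5 when arrays were left out. All genes gave 9.76%, 3.39% and from 6.51% to 11.6% in the same settings, beside 9.74% as reported. For the interaction the member count, 2 as reported, was 0 after quantile normalization and 0 with the trended, robust prior, where all genes gave 5.25% and 4.4%. The cause of these changes was not tested. Of all genes, 934 (4.68%) had an unadjusted p under 0.05 between genotypes, and from 729 to 1715 (without WT 1) with arrays left out. When only genes above the median level were tested, so that fewer genes entered, the count was 538 and the share 5.4%. For somite number, 1942 (9.74%) became 1046 with that filter (10.5% of the genes tested), 675 with the replicate block and from 1298 to 2318 with arrays left out. Genes with an adjusted p under 0.05 for somite number, 0 as reported, were 5 without WT 3 and mutant 4 together, 1 with the upper end of somite ranges and from 0 to 2 when single arrays were left out; none was a member. The labels do not state that the replicate numbers pair embryos, so the numbers were not taken as pairs. Same-numbered embryos did not deviate together (correlations of -0.05, 0.04, -0.19 and 0.10). Signal over background was read only from the span of the receptor genes, since scanner values were not analysed here.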

Other observations

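Myh9 had a second probe of lower mean, which did not enter the tests of the genes. It was at 5.81, 8.96, 7.06 and 5.54 in WT embryos 1 to 4 and at 5.64, 5.36, 7.36 and 5.80 in mutants 1 to 4, so that WT 2, WT 3 and mutant 3 stood far above the other 5 embryos, while the probe used lay between 7.58 and 8.24. The high embryos belonged to both genotypes. The second probe of Arpc1b differed between mutant and WT by -0.01 ± 0.18 (SE), and the probe used by 0.15 ± 0.17.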
